A study of Homo sapiens with 8 samples.

Results

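Glutathione peroxidases, catalase and superoxide dismutases were followed as a group of 10 genes (GPX1, GPX2, GPX3, GPX4, GPX7, GPX8, CAT, SOD1, SOD2 and SOD3) in total RNA of A549 cells in which NFE2L2 had been silenced. The genes were taken by symbol. Of the 10, 9 were matched to an identifier among the 60291 gene identifiers in the count files, and 7 reached 10 reads in 1 or more of the 7 compared libraries, as did 17811 genes in all. SOD2 was not matched to an identifier and was not analysed here. Symbols came from GENCODE v44, whose SOD2 identifier is not in the count files, whereas reads were counted over GENCODE v19. The missing match therefore does not show that SOD2 was left uncounted. A549, a cell line established from a human lung adenocarcinoma, carries a loss-of-function mutation in KEAP1, and all 3 groups share a high level of the NRF2 protein before any silencing. In the NFE2L2 siRNA group, 250000 cells per transfection received 5 nmol of 1 of 3 siRNA duplexes against NFE2L2, and each duplex was used once (n = 3). In the control siRNA group the cells received 5 nmol of 1 of 2 control duplexes, and each duplex was used in 2 transfections (n = 4). In the mock group 1 transfection was made with the lipid reagent and no siRNA. RNA was harvested after 48 h.

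These enzymes remove reactive oxygen species in successive steps. Superoxide dismutases convert superoxide to hydrogen peroxide: SOD1 uses copper and zinc and works mainly in the cytosol, SOD2 uses manganese in mitochondria, and SOD3 is secreted. Catalase (CAT) breaks down hydrogen peroxide in peroxisomes, and glutathione peroxidases reduce hydrogen peroxide or lipid peroxides at the expense of glutathione. GPX1 is the widespread cytosolic form, GPX2 is known from epithelia of the gut, GPX3 is a secreted form found in plasma and GPX4 reduces peroxidised phospholipids in membranes. These 4 carry selenocysteine at the active site, whereas GPX7 and GPX8 carry cysteine and reside in the endoplasmic reticulum. NFE2L2 encodes NRF2, a transcription factor that pairs with small MAF proteins on antioxidant response elements and that KEAP1 marks for degradation.

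A promoter was shown for the glutathione peroxidases that passed the test below, to place the antioxidant response element core where it occurred. The core TGACNNNGC was searched on both strands from 250 bases before to 50 bases after each RefSeq start site in GRCh38.p14. It was present in 13.3% of 35116 windows, and a longer form with a further A at its end, which contains the core, in 3.18%. RefSeq windows were found for 9 of the 10 genes, all except SOD1, and a match was found in 1 of the 9, GPX2, against 16.1% of all genes with such a window. The 250 bases before the start sites of GPX2 (chr14:64942746-64942995, minus strand) and GPX3 (chr5:151020341-151020590, plus strand) are given 5′ to 3′ on the strand of the gene, with the core in capitals.
GPX2: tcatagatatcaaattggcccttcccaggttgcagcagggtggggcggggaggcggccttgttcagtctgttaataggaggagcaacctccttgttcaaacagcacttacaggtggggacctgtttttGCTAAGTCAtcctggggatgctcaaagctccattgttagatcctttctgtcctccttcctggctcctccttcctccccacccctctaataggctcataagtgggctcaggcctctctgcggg
GPX3: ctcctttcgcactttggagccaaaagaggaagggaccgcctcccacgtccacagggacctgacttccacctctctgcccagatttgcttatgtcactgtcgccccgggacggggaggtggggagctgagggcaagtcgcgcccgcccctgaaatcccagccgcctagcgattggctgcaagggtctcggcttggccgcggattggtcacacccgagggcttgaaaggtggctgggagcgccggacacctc
In GPX2 the core lay on the strand opposite to the gene, from 122 to 114 bases before the start site, and it also fitted the longer form. A match describes the letters in the window and was not tested as a binding site, and its absence says only that the letters do not occur in that window.

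The silenced gene was examined first. NFE2L2 (ENSG00000116044.11) had 33.0, 52.0 and 29.7 CPM with NFE2L2 duplexes 1, 2 and 3, and 107 to 117 CPM with control siRNA. CPM denotes reads per 1000000 reads on tested genes after scaling by the TMM method, which corrects for differences in composition. This was a log2 fold change of −1.55 (SE, the standard error, 0.178, edgeR adjusted p = 0.000994), with most NFE2L2 mRNA left by duplex 2. The known NRF2 targets NQO1, a quinone reductase, and HMOX1, a haem oxygenase, changed by −2.19 (SE 0.134) and −1.94 (SE 0.217) on the log2 scale. Reads on genes numbered 35525141 to 41645410 in the compared libraries and 39498992 in the mock library. Of 9 epithelial and lung adenocarcinoma markers, 6 were tested, and none passed the test. Their log2 fold changes ran from 0.14 to 0.88 with a median of 0.50. For 2 of the 6 all NFE2L2 siRNA libraries were above all controls, as they were for 2115 of all 17811 tested genes. KRT18, an epithelial keratin and the most abundant of them per length, had the smallest of these values (0.14, adjusted p = 0.649), and its reads cannot be told apart with certainty from those of its many copies. The lung markers NKX2-1, SFTPB and SFTPC were under 10 reads in every library, so these defining markers of distal lung epithelium were absent or near 0. The remaining lung adenocarcinoma marker of the list, NAPSA, did reach 10 reads and was among the 6 tested. Markers of fibroblasts, immune and endothelial cells summed over 7 genes to 9.76 to 14.2 CPM in the NFE2L2 siRNA libraries, against 4.49 to 4.84 CPM in the controls. Most of this was COL1A1, a fibrillar collagen gene, which rose (log2 fold change 1.50, SE 0.154, adjusted p = 0.000493), while COL1A2, PTPRC, CD3E, CD68 and VWF were under 10 reads in every library. The part of either marker list in the results below was not tested. After summing the libraries of each duplex, which leaves 2 control samples, the calls at 0.01 of NFE2L2 (adjusted p = 0.0235), HMOX1 (0.0192) and COL1A1 (0.0224) were lost, as they were against either control duplex alone (0.0184 to 0.0259).

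With NFE2L2 siRNA, GPX2, GPX3 and SOD1 fell, and none of the 7 tested genes of the group passed the test with a rise. SOD2 was not matched and is not covered. GPX2 was reduced to 15.6% of the control level (95% interval 9.73% to 25.0%), GPX3 to 38.0% (30.96% to 46.7%) and SOD1 to 67.7% (59.0% to 77.6%). CAT, GPX1, GPX4 and GPX8 did not pass the test, and GPX7 and SOD3 had no reads. The 3 genes that passed were 3 of 7 tested genes of the group, against 2.76% of all tested genes that passed in either direction and 1.36% that were reduced. The median log2 fold change of the 7 tested genes was −0.41, and that of all tested genes was 0.01. In the same 7 genes, all NFE2L2 siRNA libraries were below all control libraries for 4 (GPX2, GPX3, CAT and SOD1), as they were for 11.4% of all tested genes. In these bulk samples, fewer cells that express a gene and less RNA per cell cannot be told apart. The p-values rest on the spread between transfections of 1 cell line, and control libraries of the same duplex share their siRNA.

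**Figure D1:**
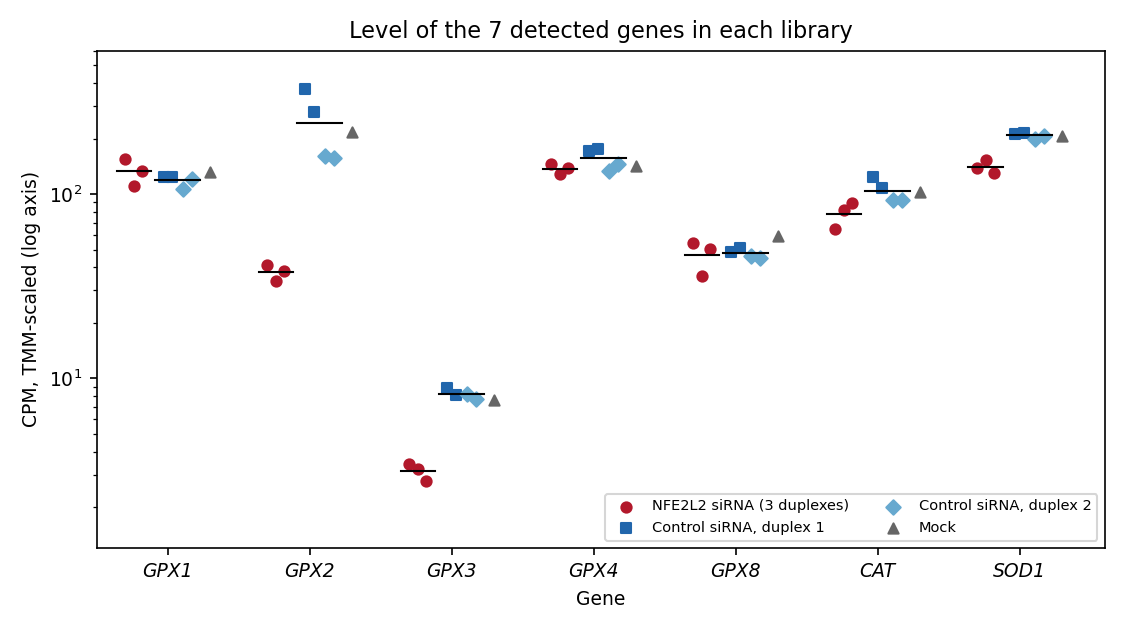
TMM-scaled CPM (log axis) of the 7 detected genes in each of the 8 libraries, with red circles for the 3 NFE2L2 siRNA duplexes, squares and diamonds for control duplexes 1 and 2 (2 transfections each), a triangle for the mock transfection, and horizontal lines at the means of the NFE2L2 siRNA and control siRNA groups. The red circles lie below all control points for GPX2, GPX3, CAT and SOD1. The groups overlap for GPX1, GPX4 and GPX8. Some circles lie above all control points for GPX1, below all of them for GPX4, and on both sides for GPX8. The GPX2 control points separate by duplex.

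Among the selenocysteine-containing glutathione peroxidases, GPX2 had the largest difference. In GRCh37, the build of all gene positions here, GPX2 (ENSG00000176153.10) spans bases 65405870 to 65409464 of chromosome 14 on the minus strand, with 3 exons in its longest annotated transcript. It had 41.4, 33.6 and 38.1 CPM with the 3 NFE2L2 duplexes, 371 and 278 CPM with control duplex 1, 160 and 157 CPM with control duplex 2, and 217 CPM in the mock library. The NFE2L2 siRNA libraries were close together and far below all others, while the control libraries split by duplex with the mock library between them. The means were 37.7 ± 3.95 CPM (SD, n = 3) and 242 ± 103 CPM (SD, n = 4). GPX2 was thus 6.41-fold lower, with a log2 fold change of −2.68 (SE 0.305, edgeR adjusted p = 0.000912). Against control duplex 1 alone the log2 fold change was −3.12, and against control duplex 2 alone it was −2.08, so that its size depended on the control duplex while the call did not. With each library left out in turn, it ranged from −2.85 to −2.40 and the adjusted p from 0.000843 to 0.00907.

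GPX3 was the least abundant of the detected genes. GPX3 (ENSG00000211445.7, chromosome 5, plus strand, 150400152 to 150408549) was covered by 122, 127 and 117 reads with NFE2L2 siRNA (3.41, 3.23 and 2.75 CPM), 329, 303, 305 and 277 reads with control siRNA (7.67 to 8.84 CPM), and 303 reads (7.59 CPM) in the mock library. The groups were well apart, with little spread within either and no split by control duplex. On the log2 scale GPX3 changed by −1.39 (SE 0.133, adjusted p = 0.000301). The adjusted p stayed between 0.000825 and 0.00227 with each library left out in turn. It missed 0.01 against control duplex 2 alone (0.0150) and after summing the libraries of each duplex, which leaves 2 control samples (0.0136).

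GPX1 and GPX4, the broadly expressed forms, did not pass the test. GPX1 (ENSG00000233276.2, chromosome 3, minus strand, from 49394607 to 49396038) had 155, 111 and 133 CPM with NFE2L2 siRNA, 107 to 124 CPM with control siRNA and 132 CPM in the mock library. Its libraries overlapped, and the log2 fold change was 0.16 (95% interval −0.11 to 0.43, adjusted p = 0.440). GPX4 (ENSG00000167468.12, chromosome 19, plus strand, from 1103981 to 1106790) had 145, 129 and 138 CPM with NFE2L2 siRNA, 172 and 175 CPM with control duplex 1, 134 and 145 CPM with control duplex 2, and 142 CPM in the mock library. All NFE2L2 siRNA libraries were below control duplex 1, and 2 of the 3 were at the level of control duplex 2. GPX4 differed by −0.19 on the log2 scale (95% interval −0.44 to 0.07, adjusted p = 0.344). Neither interval reaches −1, the log2 value of a halving. A processed pseudogene of GPX1, GPX1P1, was counted separately with 13 to 35 reads per library, and reads that fit both could have been split or dropped in the counting. Of the 1432 exon bases of GPX1 itself, 572 are shared on the same strand with a further annotated gene that the count files do not list.

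Of the cysteine forms, GPX8 was detected and GPX7 was not. GPX8 (ENSG00000164294.9, chromosome 5, plus strand, from 54455995 to 54463125) had 54.2, 36.1 and 50.6 CPM with NFE2L2 siRNA, 45.2 to 50.9 CPM with control siRNA and 59.3 CPM in the mock library. The groups overlapped, with the lowest value in NFE2L2 duplex 2. Their difference was −0.02 on the log2 scale (95% interval −0.33 to 0.29, adjusted p = 0.949), and its sign changed when certain libraries were left out. GPX7 (ENSG00000116157.5) had 0 reads in all 8 libraries, which allows a level of up to 0.0720 to 0.0844 reads per 1000000 gene reads, depending on the library (3 reads over the gene reads of each library, counting error only). The other genes of the family, GPX5 and GPX6, were also at 0 in every library.

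CAT had 64.2, 81.8 and 88.9 CPM with NFE2L2 siRNA, 123 and 108 CPM with control duplex 1, 92.6 and 93.0 CPM with control duplex 2, and 103 CPM in the mock library. Every NFE2L2 siRNA library was below every other library, but the highest of them came near to control duplex 2. CAT (ENSG00000121691.4, chromosome 11, plus strand, 34460481 to 34493607) has 13 exons in its longest transcript. Its log2 fold change was −0.41 (SE 0.141, 95% interval −0.73 to −0.10), with an unadjusted p of 0.0155 and an adjusted p of 0.104 (edgeR), so CAT did not pass. Leaving out each library in turn gave log2 fold changes from −0.51 to −0.29 and adjusted p from 0.0970 to 0.237.

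Of the superoxide dismutases matched to an identifier, SOD1 had reads and SOD3 had none, while SOD2 was not matched and its level is not known here. SOD1 (ENSG00000142168.10, chromosome 21, plus strand, 33031979 to 33041244) had 139, 154 and 131 CPM with NFE2L2 siRNA, 213, 214, 199 and 207 CPM with control siRNA, and 206 CPM in the mock library. The control libraries and the mock library were nearly level, and all NFE2L2 siRNA libraries were lower, with means of 141 ± 11.7 CPM (SD, n = 3) and 208 ± 6.58 CPM (SD, n = 4). The difference was −0.56 on the log2 scale (SE 0.0884, edgeR adjusted p = 0.00523). The call at 0.01 was lost when NFE2L2 duplex 3 was left out (adjusted p = 0.0189) and when any 1 of the 4 control libraries was (0.0182, 0.0268, 0.0151 and 0.0225 in order of duplex and transfection), with log2 fold changes between −0.64 and −0.51 throughout. It was also lost against control duplex 1 alone (adjusted p = 0.0505), against control duplex 2 alone (0.0875) and with each duplex summed (0.0986). The processed pseudogenes SOD1P1, SOD1P2 and SOD1P3 had 0 reads in every library. SOD3 (ENSG00000109610.5) had 0 reads in all 8 libraries, with the same upper limits as for GPX7.

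**Figure D2:**
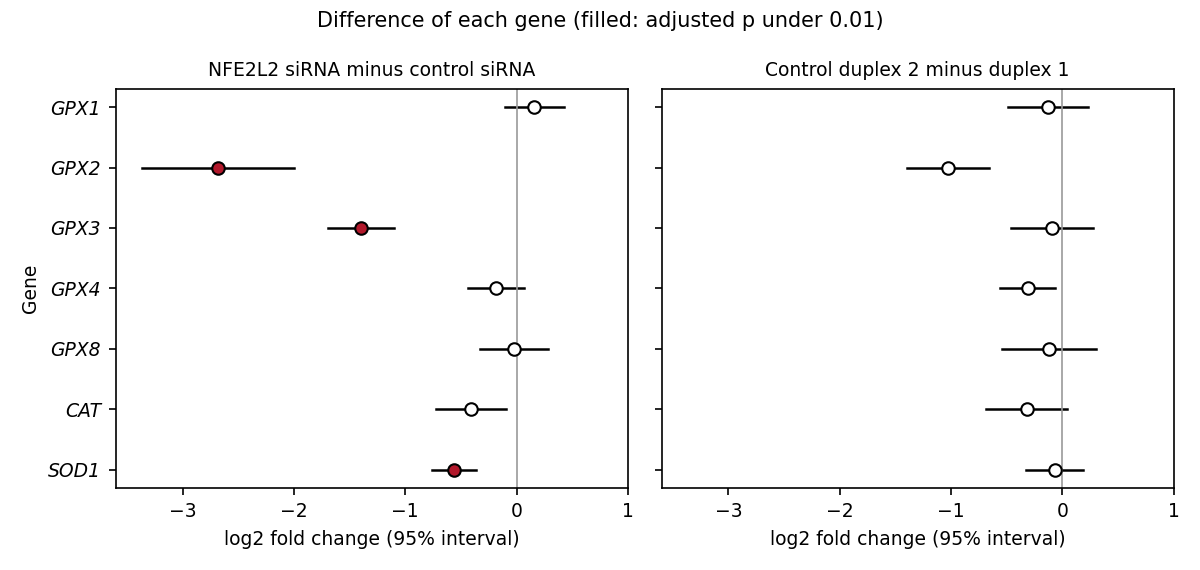
Log2 fold change of each detected gene with its 95% interval, on the left for NFE2L2 siRNA minus control siRNA (3 against 4 libraries) and on the right for control duplex 2 minus control duplex 1 (2 against 2 libraries in a fit of all 7), where filled circles mark an adjusted p under 0.01. On the left GPX2, GPX3 and SOD1 are filled and lie below 0, and on the right no circle is filled and GPX2 lies farthest from 0, at −1.03.

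The single NFE2L2 duplexes were compared as a description, since each was used in 1 library. Relative to the control mean of log2(CPM + 0.5), GPX2 was at −2.43, −2.73 and −2.55 with duplexes 1, 2 and 3. GPX3 was at −1.16, −1.22 and −1.42. SOD1 was at −0.59, −0.44 and −0.67. In these 3 genes all duplexes gave the same direction, and the duplex that left most NFE2L2 mRNA, duplex 2, gave the lowest GPX2 and the highest SOD1. Duplex 2 also gave the lowest levels of GPX1, GPX4 and GPX8, whereas CAT was lowest with duplex 1 (−0.68, against −0.34 and −0.22).

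The difference between the control duplexes was measured in a fit of the same 7 libraries with 3 groups. No gene passed the threshold of 0.01 (0.0% of 17811, edgeR), and 7.26% of the tested genes had an unadjusted p under 0.05. DESeq2 called 70 genes and limma-voom 0. GPX2 was lower with control duplex 2 than with control duplex 1 by a log2 fold change of −1.03 (95% interval −1.40 to −0.66), with an unadjusted p of 0.000177 and an adjusted p of 0.106 in edgeR. GPX2 was among the genes called by DESeq2. It was also called in a fit of the 4 control libraries alone (adjusted p = 0.000504), an alternative chosen after seeing the data in which 3.28% of 17261 tested genes passed. GPX4 was the other gene of the group with an unadjusted p under 0.05 (log2 fold change −0.31, unadjusted p = 0.0196, adjusted p = 0.555, edgeR). CAT had a log2 fold change of −0.32, and GPX1, GPX3, GPX8 and SOD1 lay between −0.13 and −0.07, each with an interval that includes 0. The mean GPX2 level with control duplex 1 was 2.04 times that with control duplex 2.

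Levels of different genes were compared per kilobase of exon, with lengths from the union of annotated exons. These lengths came from GENCODE v44, whereas reads were counted over GENCODE v19, and the effect of this on the order was not tested. With control siRNA the order was GPX2 (180 ± 76.9 CPM per kilobase, SD, n = 4), SOD1 (105 ± 3.33), GPX4 (85.1 ± 10.9), GPX1 (83.1 ± 5.73), CAT (29.1 ± 4.07), GPX8 (11.8 ± 0.633) and GPX3 (2.74 ± 0.159). Neighbours in this order did not overlap over the 4 libraries, except GPX4 and GPX1. With NFE2L2 siRNA the order was GPX1 (92.8 ± 15.2 CPM per kilobase, SD, n = 3), GPX4 (74.8 ± 4.52), SOD1 (71.4 ± 5.93), GPX2 (28.1 ± 2.94), CAT (21.9 ± 3.54), GPX8 (11.6 ± 2.37) and GPX3 (1.04 ± 0.114). By this length GPX2 was thus the first in the controls and the fourth with NFE2L2 siRNA, while the first 3 overlapped among themselves. With the length of the longest transcript in place of the union of exons, the control order of SOD1 (119 CPM per kilobase) and GPX4 (132) was exchanged. With that length GPX2 was the fifth with NFE2L2 siRNA (33.2 CPM per kilobase), next to CAT (34.2), and GPX4 (116.2) and GPX1 (115.6) also exchanged places.

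The make-up of the glutathione peroxidase transcripts is given as a description, since it follows from the levels of its genes. GPX2 supplied 58.7% and 51.2% of the summed level per kilobase of the 5 detected glutathione peroxidases with control duplex 1, 42.6% and 39.9% with control duplex 2, and 46.5% in the mock library. With NFE2L2 siRNA it supplied 13.3%, 13.7% and 13.5%. The summed level was 183 to 232 CPM per kilobase with NFE2L2 siRNA, 281 to 472 in the controls and 349 in the mock library. The ratio of GPX2 to GPX1 per kilobase was 0.287 to 0.323 in the NFE2L2 siRNA libraries and 1.40 to 3.19 in the controls, so that GPX1 was above GPX2 in each NFE2L2 siRNA library and below it in each control library. These are levels of mRNA, and no protein or enzyme activity was measured in these files.

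**Figure D3:**
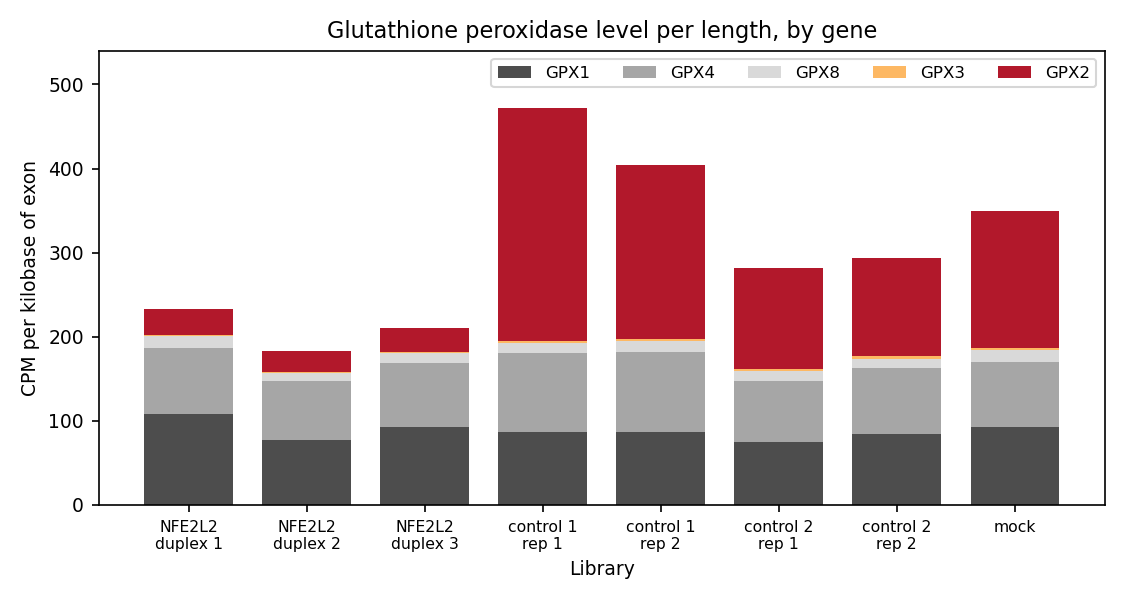
Stacked level of the 5 detected glutathione peroxidase genes in each of the 8 libraries, in TMM-scaled CPM per kilobase of exon. The GPX2 segment makes up 13.3% to 13.7% of the bar in the NFE2L2 siRNA libraries and 39.9% to 58.7% in the control siRNA libraries.

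The genes around these enzymes were read from the same fit, and a gene is said to fall or rise where it passed the threshold. Of all tested genes, 2.76% passed in either direction and 1.36% were reduced. At these shares, a short list with a lone call or none says little about its genes. Glutathione peroxidases depend on glutathione and on NADPH to regenerate it, and 7 of 10 genes of this supply fell and none rose, with a median log2 fold change of −1.38. SLC7A11, the cystine transporter, had 89.4, 32.9 and 59.4 CPM with NFE2L2 siRNA and 437 to 584 CPM in the controls (log2 fold change −3.09, adjusted p = 0.000307). The log2 fold changes were −2.52 for GCLM and −2.03 for GCLC, the subunits of the enzyme that starts glutathione synthesis, and −1.46 for GSR, which reduces oxidised glutathione. All NFE2L2 siRNA libraries were below all control libraries for 8 of the 10 genes, as they were for 11.4% of all tested genes. These 4 genes were among the 8, but they were named because they had passed the threshold. Against control duplex 2 alone, SLC7A11 (adjusted p = 0.0105) and GSR (0.0131) missed 0.01.

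Of 9 peroxiredoxins and the proteins that recycle them, a second route for hydrogen peroxide, 3 fell and none rose, with a median of −0.27. SRXN1, which restores overoxidised peroxiredoxins, had 5.43, 6.69 and 5.69 CPM with NFE2L2 siRNA and 22.7 to 32.0 CPM in the controls (log2 fold change −2.22, adjusted p = 2.79e-05). On the log2 scale the thioredoxin gene TXN changed by −1.63 (adjusted p = 2.21e-05) and the peroxiredoxin gene PRDX1 by −0.95 (adjusted p = 0.00371). The call of PRDX1 was lost without NFE2L2 duplex 3 (adjusted p = 0.0195) or without the second transfection of control duplex 1 (0.0169), against control duplex 2 alone (0.0435) and with duplexes summed (0.0409).

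Among 16 tested selenoproteins outside the glutathione peroxidases, 1 fell and none rose past the threshold. Their log2 fold changes ran from −2.57 to 1.32 with a median of −0.04. All NFE2L2 siRNA libraries were below all controls for 3 of the 16 and above them for 2, as for 2038 and 2115 of all 17811 tested genes. The gene that fell was TXNRD1, a thioredoxin reductase, with 323, 346 and 261 CPM with NFE2L2 siRNA and 1741 to 1952 CPM with control siRNA (log2 fold change −2.57, adjusted p = 4.39e-06). Of 9 genes for selenocysteine synthesis, its insertion and the uptake of selenium, 1 fell and none rose, with a median of −0.26. LRP8, a receptor for selenoprotein P, had 28.5, 27.3 and 12.3 CPM with NFE2L2 siRNA and 66.8 to 74.8 CPM with control siRNA (log2 fold change −1.65, adjusted p = 0.00423). The call of LRP8 was lost when any 1 control library was left out (adjusted p = 0.0125, 0.0160, 0.0151 and 0.0126 in order of duplex and transfection), against control duplex 1 (0.04997) or 2 (0.0622) alone, and with duplexes summed (0.0555).

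Among 7 tested genes of lipid peroxidation, the process that GPX4 opposes, 1 fell and none rose, with a median log2 fold change of −0.03. AIFM2, which reduces ubiquinone as a lipid antioxidant, had 28.8, 28.7 and 27.0 CPM with NFE2L2 siRNA and 52.7 to 63.2 CPM with control siRNA (log2 fold change −1.03, adjusted p = 0.000332). The call of AIFM2 was lost against control duplex 2 alone (adjusted p = 0.0151) and with duplexes summed (0.0162). None passed of 7 tested genes for copper and manganese supply to superoxide dismutases (median 0.15, range −0.47 to 0.20). The same held for 14 enzymes and subunits that make superoxide or hydrogen peroxide (median 0.00, range −1.53 to 0.40). It also held for 12 peroxins that build peroxisomes, where catalase resides (median −0.12, range −0.36 to 0.20). The most abundant gene per length of each of these lists had a log2 fold change of 0.19 (SLC39A14, a metal importer), 0.16 (CYBA, a subunit of NADPH oxidases) and 0.02 (PEX13, part of the peroxisomal import machinery).

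**Figure D4:**
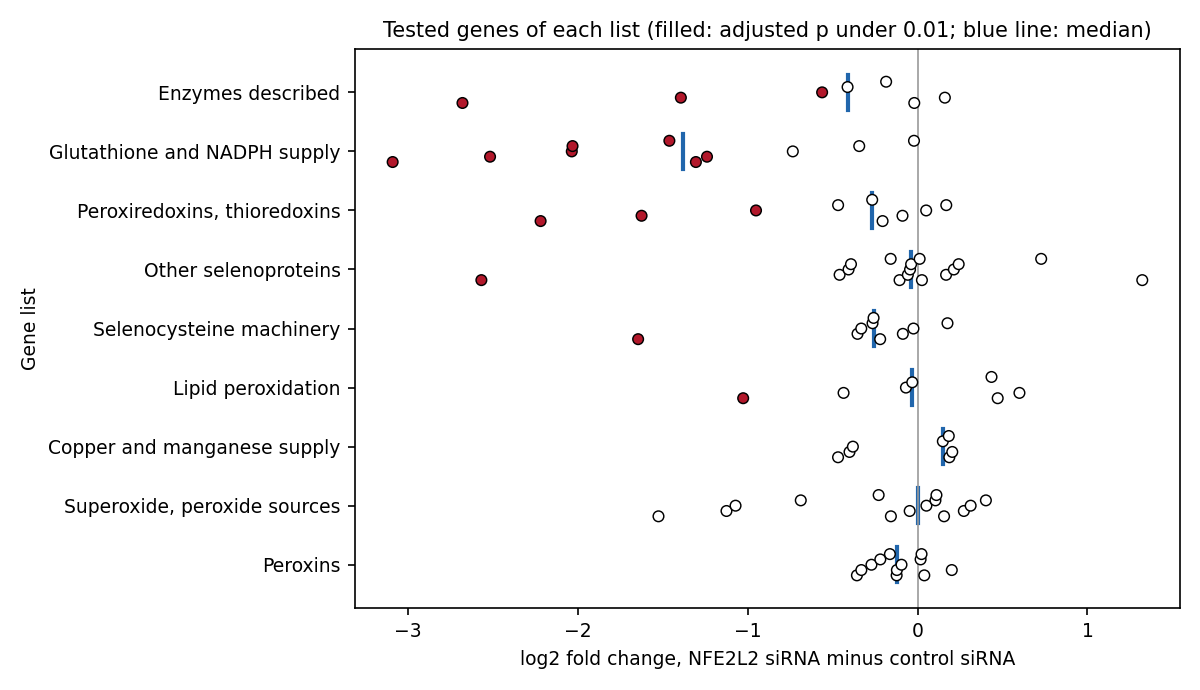
Log2 fold change, NFE2L2 siRNA minus control siRNA, of each tested gene of 9 gene lists, where filled circles mark an adjusted p under 0.01 and the blue line marks the median of the list. The filled circles all lie below 0, with 7 of 10 in glutathione and NADPH supply, 3 of 9 in peroxiredoxins and thioredoxins, 3 of 7 in the enzymes described, and none in the lowest 3 lists. Of all tested genes, 1.36% were reduced.

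The genes whose pattern over the 8 libraries was most like that of GPX2, GPX3 and SOD1 were found by the root mean square difference of log2(CPM + 0.5), centred on the gene mean, among 11827 other genes with at least 1000 reads over all libraries. For GPX2 these were PTGR1, a prostaglandin reductase (difference 0.270), AKR1C1, an aldo-keto reductase (0.309), and CES1, a carboxylesterase (0.338). Their log2 fold changes with NFE2L2 siRNA were −2.75, −2.30 and −2.35, and between control duplexes −0.31, −0.31 and −0.29, a smaller difference than the −1.03 of GPX2. Reads of AKR1C1 may be shared with closely related AKR1C genes. For GPX3 they were TBXAS1, thromboxane synthase (0.0793), MAFG, a small MAF protein (0.0855), and ASPH, an aspartate hydroxylase (0.0920), with log2 fold changes of −1.56, −1.15 and −1.22. For SOD1 they were the GTPase gene RAB10 (0.0496), SOWAHC (0.0534) and LINC01588 (0.0588), with log2 fold changes of −0.63, −0.58 and −0.65. All these genes were chosen for likeness over the same libraries, so similar fold changes and similar losses of calls follow in part from that choice. Like SOD1, RAB10 and SOWAHC lost their calls without NFE2L2 duplex 3 (adjusted p = 0.0155 and 0.0202) or without any 1 control library (0.0131 to 0.0194 and 0.0226 to 0.0321). LINC01588 did not pass (adjusted p = 0.0145) except without NFE2L2 duplex 2 (0.00943).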

How the data were processed

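Strand-specific total RNA-seq libraries of A549 cells were grouped by the transfection named in their labels. The authors deposited counts, the number of reads per gene, without normalization. Per the labels and the study's methods, reads were aligned to hg19 with HISAT 0.1.6 and counted with HTSeq 0.6.0 on the reverse strand over GENCODE v19. Strand was thus used, so reads from genes on opposite strands were kept apart, while reads that fit near-identical copies could be lost or split.

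Unassigned reads were left out of library sizes. Of all entries in the files, 60.3% to 65.6% per library were on genes. Symbols, positions and exon lengths came from GENCODE v44 mapped to GRCh37, which held 55538 of 60291 identifiers. Promoters came from RefSeq. Genes that reached 10 reads in 1 or more of the 7 siRNA libraries entered the quasi-likelihood test of edgeR 4.0.16 (R 4.3.3, TMM factors 0.957 to 1.02, prior count 0.125, two-sided). P-values were adjusted by Benjamini-Hochberg across these genes, and 0.01 was the threshold. Every adjusted p is from this test unless another tool is named. The SE of a log2 fold change is its size divided by the square root of its F statistic. The mock library was described but not tested, as in the study's methods, which used DESeq2. Alternatives were DESeq2 1.42.0, limma-voom (limma 3.58.1), other scalings, filters, a threshold of 0.05, other control groups and fits without each single library. The edgeR, DESeq2 and limma-voom tests were tested on simulated data. For an absolute log2 change of 1, edgeR recovered 81.7% of the changed genes in the comparison of NFE2L2 siRNA with control siRNA. Between control duplexes it recovered 53.8%, DESeq2 75% and limma-voom 48.1%, so a change of that size was often missed there.

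The genes, gene lists and tests were chosen with earlier results of these data known, and the lists are therefore described by counts and medians. Named in each list were up to 5 genes past the threshold with the largest log2 fold change or, where none passed, the most abundant gene per length. The values of 1 gene that this rule names are not reported here.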

Additional observations from a re-analysis of the deposited data

Results flagged for a closer look

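Among 35 named genes, the gap between 1 of the 4 control libraries and its nearest neighbour exceeded the critical share of the range (Dixon, 95%) in 2, where chance gives about 1 in 20 groups, or 1.75 of 35. CES1, one of the genes most like GPX2 in pattern, had 68.7 CPM in the first transfection of control duplex 1 and 48.6 to 51.6 CPM in the other 3 control libraries. SOWAHC, one of those most like SOD1, had 52.1 CPM in the second transfection of control duplex 2 and 49.2 to 49.7 CPM in the others. None of the 7 detected glutathione peroxidases, catalase and superoxide dismutases was flagged in this way.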

How the results depend on the processing

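GPX2 passed the threshold in each alternative run, and no alternative reversed GPX2, GPX3, CAT, SOD1, GPX1 or GPX4. Of 133 values of the 7 genes under alternatives, 119 kept direction and call, 10 lost the call (GPX3 and SOD1) and 4 reversed, all of GPX8, to 0.012 with library size alone, 0.040 against control duplex 2 alone, and within −0.135 to 0.1245 over the fits that leave out 1 library. Of 532 values of 28 other named genes, 479 kept direction and call, 44 lost and 4 gained the call, and 5 reversed. These were CYBA (−0.055) and PEX13 (−0.035) against control duplex 1 alone and, with 1 library left out, PEX13 (−0.064 to 0.109) and KRT18 (−0.116 to 0.301).

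The number of genes called, 491, became 1456 at 0.05, 1314 with DESeq2, 1019 without a filter on low counts, 772 with the mock library added to the controls, 120 and 59 against control duplexes 1 and 2 alone, 78 with each duplex summed, and 163 (without control library 2) to 915 (without NFE2L2 duplex 2) when 1 library was omitted. Of the 7 genes, 3 were called in the main test, 1 (GPX2) against control duplex 2 alone or with duplexes summed, and 2 to 3 with a library omitted. Between control duplexes, 0 of the 7 genes were called with edgeR, and 1 (GPX2) with DESeq2 or with the control libraries alone. Fits without libraries hold fewer samples, and the causes of the other changes were not tested. The median of all genes moved by under 0.1 in each scaling.

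With the longest transcript as length, the control level per kilobase was 119 for SOD1, 132 for GPX4, 103 for GPX1, 45.5 for CAT, 12.8 for GPX8 and 5.13 for GPX3, and GPX2 supplied 11.9% (NFE2L2 siRNA) and 44.2% (control siRNA) of the glutathione peroxidase level. The latter pair was chosen after seeing the data. No paired analysis was possible because a replicate number names a duplex in the NFE2L2 siRNA group and a repeat of 1 duplex in the control group. GPX7 and SOD3 were limited by a floor of 3 reads, and p-values rest on 3 and 4 libraries.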
